A study of Mus musculus with 16 samples.

Results

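Bile duct epithelial cells line the ducts that carry bile out of the liver. They can be followed in whole liver RNA through a few genes that hepatocytes make little of. Here 10 genes were described: the bile duct markers Krt7, Krt19, Epcam, Sox9, Muc1, Spp1 and Cftr, and with them Reg1, Slc9a3 and Slc26a3. They are 10 of the 24082 Ensembl genes in the deposited table, and 9 of the 10 passed the filter on low values, Cftr being the exception. The genes were selected on measured values: the choice was made with their normalized counts in these 16 libraries, and the IMC and ethanol comparisons, already known. For Reg1, Slc9a3 and Slc26a3, which are not general duct markers, the levels are therefore given as a description with no test. The duct markers were tested, but their p-values are not independent of the choice, since these comparisons were known when they were listed.

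Messenger RNA from the livers of 16 female C57BL6/J mice, 9 to 11 weeks old, was sequenced. The mice received a liquid diet for 25 days, either with ethanol raised in steps to 6% vol/vol (EtOH) or, pair-fed, with maltose dextrin in place of the ethanol calories (Pair). Within each diet 4 mice received iodomethylcholine (IMC), an inhibitor of the bacterial enzyme that releases trimethylamine from choline, at 0.06% wt/wt of the diet, and 4 received the diet without it (control). The 4 groups are thus Pair control (libraries 10, 12, 14 and 16), Pair IMC (2, 4, 6 and 8), EtOH control (1, 3, 5 and 7) and EtOH IMC (9, 11, 13 and 15). No transgene or gene deletion was involved, and mice given ethanol with IMC ate and weighed less than those given ethanol alone according to the study's text. A figure legend of the study also marks a body weight difference between pair-fed mice with and without IMC, without giving its direction. Within a diet the IMC and control libraries have separate runs of numbers. The labels do not say what the numbers stand for, so library number and IMC cannot be told apart within a diet. Libraries held 9632659 to 12601199 reads on genes. All levels below are normalized counts, that is, reads on a gene divided by a size factor of the library, brought to 1 scale over all 16 libraries, on which 1 read is worth 0.842 to 1.25. All 8 hepatocyte markers looked at were detected in each library, with a summed level of 1135100 to 2065950 (given by library with the other liver cell markers). The 7 duct markers summed to 557 to 1399.

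Duct cells modify bile as it flows past. They add chloride, bicarbonate and water through channels and exchangers in the membrane facing the lumen, and they take up sodium and bile acids. Cftr is the chloride channel of this membrane. Slc9a3 (NHE3) exchanges sodium for protons and is known best from the apical membrane of gut, kidney tubule and gallbladder epithelium. Slc26a3 exchanges chloride for bicarbonate and is abundant in the colon. Reg1 encodes a small secreted lectin made in large amounts by the exocrine pancreas. Krt7 and Krt19 are the intermediate filament keratins of duct epithelium, Epcam is an epithelial adhesion molecule, Muc1 is a mucin of apical membranes, Sox9 is a transcription factor of duct cells and their precursors, and Spp1 encodes the secreted phosphoprotein osteopontin, which other liver cells can also make.

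The genes lie on 8 chromosomes in GRCm38. In the GENCODE vM21 annotation Krt19 spans chr11:100140810-100148665, Muc1 chr3:89229057-89233381, Reg1 chr6:78422711-78428667, Slc9a3 chr13:74121457-74169442 and Slc26a3 chr12:31390871-31473917. Reg1 and Cftr share chromosome 6, and Krt19 and Sox9 share chromosome 11. The 5' end of Krt7 overlaps the antisense gene Gm671, and whether the counting used strand is not given in the sources used here, so a share of Gm671 in the Krt7 reads cannot be told apart. Because levels of Muc1, Reg1, Slc9a3 and Slc26a3 were high in the same libraries (below), the 250 bases before their RefSeq starts are shown. RefSeq promoters on GRCm38.p6 matched 8 of the 10 genes. The RefSeq starts of Muc1 and Slc9a3 lie 1 and 44 bases before the GENCODE gene spans, but those of Reg1 and Slc26a3 lie 3272 and 47348 bases inside them, because the GENCODE spans reach further upstream. The sequences are those at chr3:89228806-89229055, chr6:78425733-78425982, chr12:31437969-31438218 and chr13:74121163-74121412, all on the plus strand and written 5' to 3'. Capitals mark TATAAA, the core promoter element bound by the general factor TBP. They also mark GTTAAT, which is part of the site of HNF1 factors, and AGGAAG, a core of the sites of ETS factors such as Elf3 and Ehf.
Muc1: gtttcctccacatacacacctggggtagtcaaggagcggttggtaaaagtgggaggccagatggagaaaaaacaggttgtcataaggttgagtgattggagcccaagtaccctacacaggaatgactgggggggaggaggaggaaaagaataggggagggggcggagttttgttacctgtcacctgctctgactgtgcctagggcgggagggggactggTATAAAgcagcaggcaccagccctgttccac
Reg1: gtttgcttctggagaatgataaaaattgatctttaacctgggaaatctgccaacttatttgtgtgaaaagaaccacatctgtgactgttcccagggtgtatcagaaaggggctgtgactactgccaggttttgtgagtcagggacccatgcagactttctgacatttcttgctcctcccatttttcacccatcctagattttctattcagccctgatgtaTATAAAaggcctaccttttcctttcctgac
Slc26a3: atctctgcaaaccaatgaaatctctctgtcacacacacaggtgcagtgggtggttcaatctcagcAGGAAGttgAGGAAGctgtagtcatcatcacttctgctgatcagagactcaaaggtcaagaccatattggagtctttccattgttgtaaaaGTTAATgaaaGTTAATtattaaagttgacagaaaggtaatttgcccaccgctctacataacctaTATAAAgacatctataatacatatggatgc
Slc9a3: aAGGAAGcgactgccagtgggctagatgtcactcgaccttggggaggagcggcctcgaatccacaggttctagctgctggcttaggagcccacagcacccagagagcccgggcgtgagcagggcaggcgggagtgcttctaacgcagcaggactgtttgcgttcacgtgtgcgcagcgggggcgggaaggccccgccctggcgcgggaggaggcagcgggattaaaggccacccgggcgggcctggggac
TATAAA lay 31 bases before the start of Muc1 and 30 bases before those of Reg1 and Slc26a3, and the window of Slc9a3 did not hold it. On either strand it occurred in 12.4% of 32851 promoter windows of this length. GTTAAT occurred in 6.43% of all windows and at 2 places in that of Slc26a3. AGGAAG occurred in 29.5% of all windows, once in that of Slc9a3 and at 2 places in that of Slc26a3. The other motifs searched on both strands were ACAAAG (SOX core, 16.5% of all windows), which none of the 4 windows held, and CACCTG (an E-box, 17.2%), found at 2 places before Muc1 and once before Slc26a3. No searched motif was in all 4 windows, and a match is only a match of letters.

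Measured per kilobase of merged exon in Pair control, Spp1 had the highest level, at 363 ± 67.8 normalized counts per kb (SD, n = 4). It was followed by Krt19 (83.5 ± 52.7), Muc1 (47.1 ± 27.5), Reg1 (39.2 ± 24.0), Epcam (19.9 ± 10.5), Sox9 (11.7 ± 4.11), Slc9a3 (9.85 ± 6.74), Slc26a3 (5.40 ± 3.47), Krt7 (4.15 ± 1.67) and Cftr (0.887 ± 0.615). Only Spp1 and Krt19, and at the other end Krt7 and Cftr, stood apart from the neighbour in this order by more than their SDs. In Pair IMC the order per kb was different, with Spp1 at 326 ± 17.1, Krt19 at 18.0 ± 9.37, Epcam at 11.5 ± 2.99, Muc1 at 10.2 ± 3.07 and Sox9 at 8.30 ± 2.58, while Reg1 was at 0 in each library. In EtOH control Reg1 (21.2 ± 25.4) again stood near Muc1 (14.8 ± 13.3) and Krt19 (31.5 ± 31.1), with SDs about as large as the means. In EtOH IMC the means per kb were 36.9 ± 27.2 for Krt19, 21.7 ± 15.8 for Muc1 and 13.7 ± 17.4 for Reg1.

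The 3 genes that are not general duct markers were present in some livers and close to absent in others. Reg1 had 39.9, 53.5, 44.3 and 4.05 normalized counts in libraries 10, 12, 14 and 16 of Pair control. It had no read in any Pair IMC library. In EtOH control it was at 0 in libraries 1 and 7 and at 45.7 and 31.2 in libraries 3 and 5. In EtOH IMC it was at 0 in libraries 9 and 13 and at 16.8 and 32.9 in libraries 11 and 15. Thus 8 of 16 libraries had no read of Reg1, and the other 8 had more than 3. A count of 0 allows a level of up to 2.56 to 3.75 in these libraries (3 reads, counting error only).

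Slc9a3 was at 87.5, 77.8, 46.6 and 5.06 in Pair control, in the same library order. In Pair IMC it was at 1.01, 1.94, 0 and 0, which is at most 2 reads. EtOH control libraries 1, 3, 5 and 7 had 0, 17.0, 14.3 and 0, and EtOH IMC libraries 9, 11, 13 and 15 had 1.71, 22.7, 0 and 14.1. The 8 libraries with more than 3 reads of Slc9a3 were the 8 with reads of Reg1. Slc26a3 was at 42.1, 56.4, 35.0 and 4.05 in Pair control and at 0, 1.94, 1.99 and 0 in Pair IMC. It was at 0, 8.497, 34.5 and 0 in EtOH control, and at 8.55, 38.7, 0.989 and 29.1 in EtOH IMC. It exceeded 3 reads in 9 libraries, the same 8 and library 9 of EtOH IMC.

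Group means of these 3 genes therefore stand for mice that were unlike each other. Against the floor of 3 reads per library in Pair IMC, the Pair control mean was at least 11.2-fold higher for Reg1, 17.1-fold for Slc9a3 and 10.8-fold for Slc26a3. The SDs of Pair control were 21.7, 37.1 and 22.1 (n = 4). Its library 16, at 4.05, 5.06 and 4.05, was near that floor of 3.17. The EtOH IMC mean was at least 3.92-fold (Reg1), 3.04-fold (Slc9a3) and 6.10-fold (Slc26a3) higher than that floor, but in EtOH IMC libraries 9 and 13 had no Reg1 read. Between EtOH control and EtOH IMC the levels overlapped for all 3 genes: Reg1 averaged 19.2 ± 23.0 and 12.4 ± 15.8, Slc9a3 7.83 ± 9.11 and 9.63 ± 10.8, and Slc26a3 10.8 ± 16.4 and 19.3 ± 17.6 (SD, n = 4). Every Slc9a3 value of the ethanol-fed mice was below those of Pair control libraries 10, 12 and 14. Those of libraries 3, 5, 11 and 15 were above that of Pair control library 16 (5.06).

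**Figure D1:**
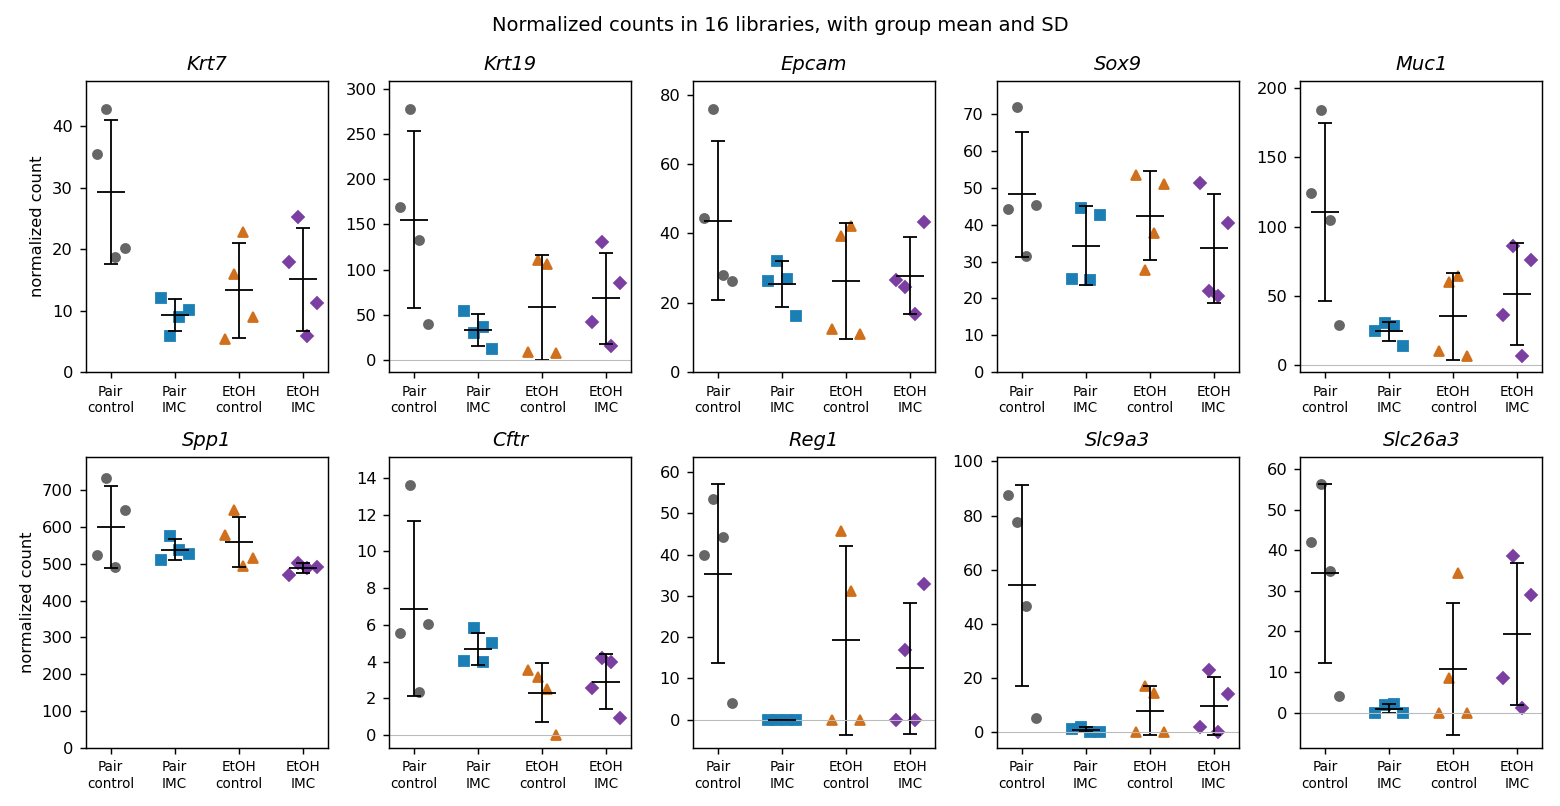
Normalized counts (linear axis, a scale for each gene) of the 10 genes in 16 livers. Points are libraries, in number order within a group, and the bar and whiskers are the group mean and SD (n = 4). Reg1, Slc9a3 and Slc26a3 lie at or near 0 in all 4 Pair IMC libraries and split into low and high libraries in both ethanol-fed groups, whereas Spp1 stays between 470.2 and 733 throughout.

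Among the duct markers, Krt7 was the one that passed the test in any comparison. Krt7 stood at 35.4, 42.8, 18.7 and 20.2 normalized counts in Pair control and at 12.1, 5.81, 8.96 and 10.01 in Pair IMC. All 4 control values lay above all 4 IMC values. On the log2(normalized count + 1) scale Krt7 fell by 1.52 with IMC in pair-fed mice (SE 0.44, adjusted p = 0.0384, limma with Benjamini-Hochberg adjustment over 12535 genes). It was 1 of the 6 markers tested, which were listed with this comparison already known. In this comparison 9.48% of all genes tested were called and 5.16% were called lower. Each of libraries 4, 6, 10 and 12 was needed for the call, the adjusted p being 0.116, 0.0836, 0.0899 and 0.106 without them. The call was also lost with quantile normalization (0.0510) and without the filter on low values (0.0580), and over all alternatives the adjusted p ran from 0.00879 (DESeq2) to 0.116. In ethanol-fed mice Krt7 was at 5.35, 15.9, 22.7 and 9.02 in control and 18.0, 25.3, 5.93 and 11.3 with IMC, sets that overlapped (log2 difference 0.18, SE 0.44, adjusted p = 0.804).

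Krt19 and Muc1 differed more between groups than Krt7 on average, and far more between the mice of a group. Krt19 was at 169, 277, 133 and 40.5 in Pair control and at 54.5, 30.0, 36.8 and 12.5 in Pair IMC. The value of library 16 lay within the IMC range. The log2 difference of -2.06 (SE 0.83) did not pass the test (adjusted p = 0.127, limma). In EtOH control Krt19 was at 8.91, 110.5, 106 and 8.02, and in EtOH IMC at 41.9, 130.5, 15.8 and 85.5. Libraries 1 and 7 thus had far less Krt19 than libraries 3 and 5 of the same group.

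Muc1 behaved likewise, at 124, 185, 105 and 28.3 in Pair control and 24.2, 30.0, 27.9 and 13.8 in Pair IMC. Its log2 difference of -1.94 (SE 0.79) had an adjusted p of 0.131 in limma, which became 0.0429 when the 8 pair-fed libraries were fitted alone and 0.0493 in edgeR with upper quartiles. Muc1 was at 9.80, 59.5, 64.0 and 6.01 in EtOH control and at 35.9, 85.9, 5.93 and 76.1 in EtOH IMC. Epcam showed a smaller spread of the same shape. It was at 44.3, 75.8, 28.0 and 26.3 in Pair control, 26.3, 31.9, 26.9 and 16.3 in the Pair IMC mice, 12.5, 39.3, 42.1 and 11.02 in the EtOH control libraries, and 26.5, 24.4, 16.8 and 43.2 in EtOH IMC. For Epcam, too, libraries 1 and 7 were lower than libraries 3 and 5. In bulk liver RNA, fewer duct cells and less RNA per duct cell cannot be told apart.

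Sox9 and Spp1 did not share this shape. Sox9 was at 53.5, 27.6, 37.9 and 51.1 in EtOH control, highest in the 2 libraries in which Krt19 was lowest. Its group means lay between 33.6 ± 14.8 (EtOH IMC) and 48.3 ± 17.0 (Pair control). Spp1 was at 524, 733, 492 and 647 in Pair control, 511, 577, 539 and 526 in the Pair IMC mice, 579, 646, 494 and 515 in the EtOH control libraries, and 470.2, 503, 488 and 490.2 in EtOH IMC. In relative terms the highest Spp1 library exceeded the lowest by less than for any other of the 10 genes. Cftr was at the edge of detection, with at most 14 reads in a library, and 6 of 16 libraries had 3 reads or fewer. Its means were 6.89 ± 4.78 in Pair control, 4.71 ± 0.869 in the Pair IMC mice, 2.32 ± 1.60 in the EtOH control libraries and 2.92 ± 1.504 in EtOH IMC, and no test was run on it.

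No marker passed the test in the 6 other comparisons, in limma or in edgeR and DESeq2 on whole reads. IMC in ethanol-fed mice called 0 of 6 markers (21.5% of all genes), with none at an unadjusted p under 0.05. IMC averaged over both diets called 0 of 6 (28.2% of all genes), with Krt7 alone under 0.05 unadjusted (log2 difference -0.67, SE 0.31, adjusted p = 0.119). The difference of the IMC effects between diets called 0 of 6 (1.11% of all genes). There Krt7 (1.70, SE 0.63), Krt19 (2.79, SE 1.17) and Muc1 (2.57, SE 1.12) were under 0.05 unadjusted, and their adjusted p were 0.197, 0.265 and 0.282.

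The test was not passed in the comparisons of ethanol with pair feeding either. Ethanol in control mice called 0 of 6 markers (11.9% of all genes), with Krt7 (-1.18, SE 0.44), Krt19 (-1.99, SE 0.83) and Muc1 (-1.98, SE 0.79) under 0.05 unadjusted and at adjusted p of 0.0915, 0.126 and 0.1096. Ethanol in IMC-treated mice called 0 of 6 (16.5% of all genes), and ethanol averaged over both treatments 0 of 6 (26.1% of all genes), with none under 0.05 unadjusted in either. IMC in pair-fed mice and ethanol in control mice share the 4 Pair control libraries. The median log2 difference of the 6 markers was -1.09 in the former and -0.999 in the latter, against -0.00 and -0.01 over all genes tested. In IMC-treated mice the median for ethanol was 0.31.

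**Figure D2:**
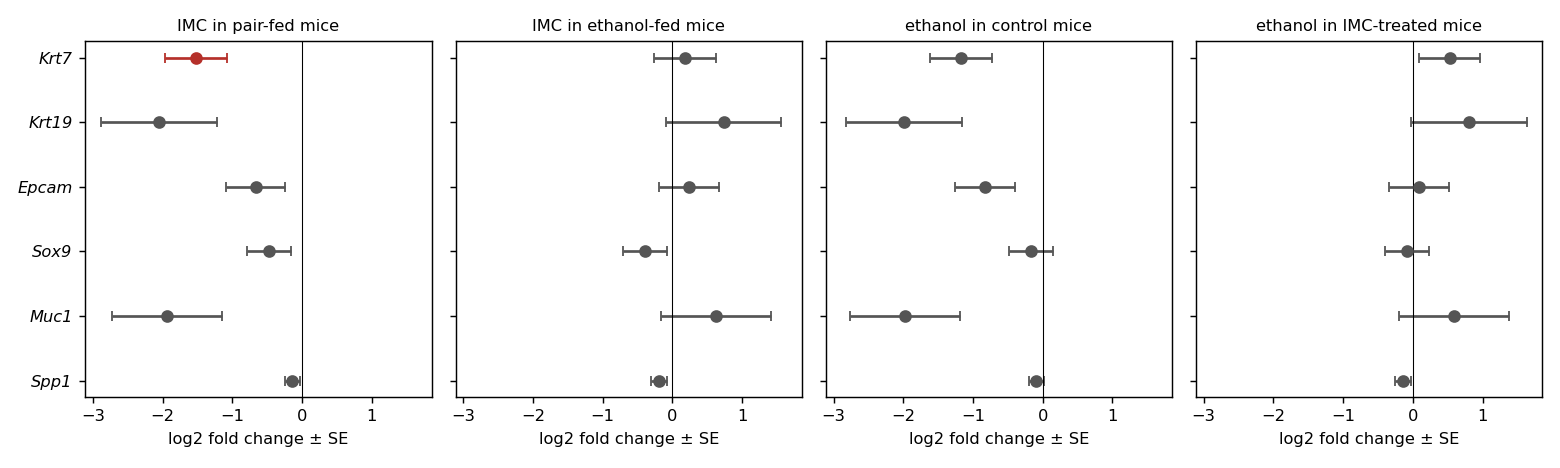
Log2 fold change (log2(normalized count + 1) scale, x axis) with its SE for the 6 duct markers tested, in 4 comparisons, from limma. Red marks an adjusted p under 0.05, which Krt7 alone reached, at -1.52 for IMC in pair-fed mice. The bars of Krt19 and Muc1 are the widest, and those of Spp1 the narrowest.

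Some of the duct markers were high and low in the same libraries, and others were not. After removal of the 4 group means, the 15 pairs of the 6 tested duct markers had a median Pearson r of 0.23 on the log2 scale over 16 libraries, and r exceeded 0.8 in 3 of them, those of Krt19, Muc1 and Epcam. With Reg1, Slc9a3 and Slc26a3 added, which were selected on their levels in these libraries, the median over 36 pairs was 0.70 (jackknife SE 0.17, and 0.61 to 0.77 when each library in turn was left out). That value mostly restates the selection, since 21 of the 36 pairs include an added gene, as do 11 of the 14 pairs with r over 0.8. Krt19 and Muc1 had r = 0.95 (Spearman's rho 0.92, and r = 0.94 without libraries 1 and 7). Krt19 and Epcam had r = 0.87 (rho 0.84), Epcam and Muc1 0.85 (rho 0.86), and Krt7 with Krt19 0.77 (rho 0.79). Sox9 had r = -0.26 with Krt19, -0.05 with Muc1 and 0.06 with Epcam, and Spp1 had 0.11, 0.10 and 0.32 with these genes. These are descriptions without a p, since the genes share libraries and were chosen with their levels known.

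Reg1, Slc9a3 and Slc26a3 fell into libraries near 0 and libraries well above it, so a single r over 16 libraries says little beyond that split. Within the 8 libraries with more than 3 reads of Slc9a3, log2 levels of Slc9a3 had r = 0.94 with Muc1 (rho 0.88, and 0.92 without the 2 libraries farthest from the median of Muc1). Group means were not removed for the r over these 8 libraries, so differences between the groups are part of them. With Krt19 the r was 0.92 (rho 0.98, and 0.90 likewise). Reg1 had r = 0.79 with Muc1 in these 8 libraries, but 0.06 without the 2 farthest, so that relation rests on them. Relative to Muc1, Slc9a3 was more abundant in 3 Pair control livers, with a ratio of 0.705, 0.421 and 0.444 in libraries 10, 12 and 14. The ratio was 0.286 and 0.224 in EtOH control libraries 3 and 5, 0.265 and 0.185 in EtOH IMC libraries 11 and 15, and 0.179 in Pair control library 16. The Reg1 ratio to Muc1 went from 0.143 in library 16 to 0.768 in library 3, and was not highest in those 3 Pair control livers.

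**Figure D3:**
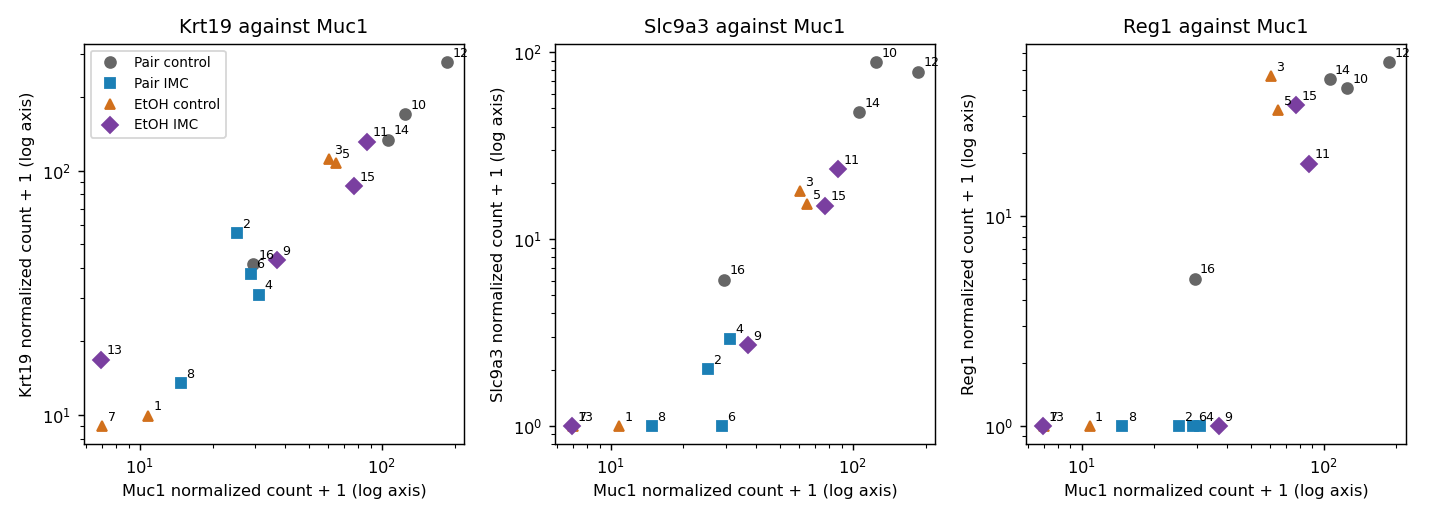
Krt19, Slc9a3 and Reg1 against Muc1, each as normalized count + 1 on log axes, one point per library with its number, colours and shapes giving the 4 groups. Krt19 follows Muc1 over the whole range, Slc9a3 follows it in the 8 libraries with more than 3 reads of Slc9a3 but is near 0 in libraries 4 and 9 (Muc1 at 30.0 and 35.9), and Reg1 is at 0 in 8 libraries, library 9 among them.

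The genes most like the duct markers were found among all 12535 genes by r over 16 libraries, group means removed. Closest to the mean of the 6 markers were Trappc6a (r = 0.90), a subunit of a vesicle tethering complex, Elf3 (0.90), an epithelial ETS transcription factor, Hip1r (0.90), which links clathrin coats to actin, Mgat3 (0.86), a glycosyltransferase, and Tmem45b (0.86). Over all genes tested 0.183% exceeded 0.8 for this mean. Elf3 was at 28.8, 64.2, 12.8 and 17.2 in Pair control, and at 6.06, 6.77, 6.97 and 8.76 in Pair IMC. It was at 8.91, 21.2, 27.8 and 11.02 in EtOH control and at 16.2, 41.2, 6.92 and 36.6 in EtOH IMC. In these ethanol-fed groups Elf3 was highest in libraries 3 and 5 and in libraries 11 and 15, as Krt19 was. In Pair control, library 14 had less Elf3 than library 16 but more Krt19. Library 8 had the most Elf3 and the least Krt19 of Pair IMC. Krt19 is part of the mean by which Elf3 was picked.

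Closest to Reg1 were Myo1a, a myosin of the brush border, Ctrb1, a pancreatic chymotrypsinogen, Ckmt1, a mitochondrial creatine kinase, Tspan8, a membrane tetraspanin, and Fam83e, with r between 0.90 and 0.95. Closest to Slc9a3 were Ckmt1, Fam83e, Sema3c (a semaphorin), Myo1a and Ctrb1, with r between 0.94 and 0.96, so that 4 genes stood in both lists. The split into low and high libraries is part of these values too. Myo1a had 19.9, 18.5, 21.0 and 2.02 in Pair control, 3.03, 3.87, 2.99 and 1.25 in the Pair IMC mice, 0.891, 15.9, 13.5 and 0 in the EtOH control libraries, and 0, 28.6, 0 and 15.97 in EtOH IMC. Ckmt1 had 56.5, 69.0, 45.5 and 5.06 in Pair control and 0, 26.6, 37.9 and 0 in EtOH control.

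Other genes of biliary epithelium were read from a list of 19, of which 17 were tested. IMC in pair-fed mice lowered 3 of 17 and raised none (9.48% of all genes called, 5.16% lower), with a median log2 difference of -0.33. The 3 were Cldn3, a tight junction claudin (-0.91, SE 0.23, adjusted p = 0.0222, limma), Cd24a, a surface glycoprotein of duct cells (-1.95, SE 0.51, adjusted p = 0.0226), and Elf3 (-1.71, SE 0.52, adjusted p = 0.0463). Each of these calls was lost without library 10 (adjusted p 0.0662, 0.0548 and 0.0913) and without library 12 (0.0694, 0.0585 and 0.139), as that of Krt7 was. They were lost also without library 2 for Cldn3 (0.0552), 6 or 8 for Cd24a (0.0505 and 0.0520), and 2, 3, 4, 6, 7, 8 or 9 for Elf3 (0.0519 to 0.104). The call on Elf3 was further lost with quantile normalization, a pseudocount of 5, no filter or no trend (0.0536 to 0.0690), and that on Cldn3 in the 8 pair-fed libraries alone (0.0555). Cd24a had 277, 288, 231 and 123 in Pair control and 55.5, 89.0, 64.7 and 30.0 in Pair IMC. In EtOH control it had 28.5, 151, 136 and 32.1, and libraries 1 and 7 were again the low ones.

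Averaged over both diets IMC lowered 5 of 17 (Pkhd1, Wfdc2, Prom1, Dcdc2a and Cldn3) and raised none, with a median of -0.49. With 28.2% of all genes called in this comparison in either direction, the number called is near the background. Of all 12535 genes, 1759 were called lower and 1770 higher, whereas the 5 biliary genes called were all lower. The list was not tested as a set. The call on Cldn3 was lost without library 1, 10, 12, 13 or 15 (adjusted p 0.0507 to 0.0548). Wfdc2, a secreted whey acidic protein, fell by 0.74 on the log2 scale (SE 0.14, adjusted p = 0.00105). Pkhd1, the fibrocystin of the duct cilium, fell by 0.48 (SE 0.08, adjusted p = 0.000335). Pkhd1 was at 225, 194, 221 and 203 in EtOH control and 121, 103, 133 and 103 in EtOH IMC, without overlap, but at 168, 157, 156 and 172 in Pair control and 159, 128, 154 and 180.2 in Pair IMC.

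Ethanol averaged over both treatments raised 5 of 17 biliary genes (Cdh1, Prom1, Krt8, Krt18 and Krt23) and lowered 1 (Dcdc2a), where 26.1% of all genes were called. Prom1, a membrane glycoprotein of progenitor and duct cells, rose by 1.39 (SE 0.23, adjusted p = 0.000321), from 70.8 to 265 in Pair control and 70.6 to 143 in Pair IMC to 401 to 636 in EtOH control and 161 to 299 in EtOH IMC. Krt8, a keratin that hepatocytes also make, rose by 0.60 (SE 0.13, adjusted p = 0.00258). Prom1 did not follow Krt19 between mice, since EtOH control libraries 1 and 7 had 401 and 463 and libraries 3 and 5 had 414 and 636. The call on Dcdc2a was lost on the deposited scale (adjusted p = 0.210), without the filter (0.0531) and without library 2, 5, 7 or 10 (0.0513 to 0.0638).

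Of 19 genes of ductal transport and secretion 16 were tested. IMC in pair-fed mice raised 3 (Slc5a1, Slc26a6 and Slc9a3r2) and lowered 2 (9.48% of all genes called). The 2 were Ezr, the ezrin that ties apical membranes to actin (-1.11, SE 0.26, adjusted p = 0.0126), and Slc9a3r1, the NHERF1 scaffold that binds the tails of Slc9a3 and Cftr (-0.68, SE 0.10, adjusted p = 0.000925). Ezr had 162, 184, 132 and 74.9 in Pair control and 55.5, 75.5, 55.8 and 55.1 in Pair IMC, with library 16 just under the highest IMC value. Slc9a3r1 had 1526, 2073, 1440 and 1636 against 1025, 1065, 1118 and 932, without overlap. Both kept their calls in each alternative run. Between mice they were unlike. Over 16 libraries, group means removed, Ezr had r = 0.90 with Slc9a3, 0.77 with Reg1 and 0.79 with the duct mean. Slc9a3r1 had 0.07, 0.0066 and 0.52, so it did not follow Slc9a3 or Reg1 between mice. In EtOH IMC Slc9a3r1 stood at 1425 to 1649, beside 1509 to 1814 in EtOH control. Averaged over both diets IMC raised 4 of the 16 (Slc5a1, Slc26a6, Pkd1 and Slc9a3r2) and lowered 2 (Slc9a3r1 and Pdzk1), beside 28.2% of all genes called.

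Ethanol averaged over both treatments raised 3 (Slc26a6, Aqp1 and Slc9a3r1) and lowered 2 of these 16 genes (26.1% of all genes called). Slc26a6, an anion exchanger of the family of Slc26a3, rose by 1.30 (SE 0.12, adjusted p = 1.87e-06), from 23.3 to 71.6 over the pair-fed libraries to 90.9 to 138 over the ethanol-fed ones, without overlap. Aqp1, a water channel, rose by 0.47 (SE 0.08, adjusted p = 0.000317), and its r with the duct mean was -0.09. Slc10a2, the apical sodium-dependent bile acid transporter of duct cells and ileum, fell by 2.004 (SE 0.30, adjusted p = 0.000175). It had 111, 399, 104 and 126 in Pair control, 146, 78.4, 101 and 149 in the Pair IMC mice, 21.4, 28.7, 58.1 and 38.1 in the EtOH control libraries and 22.2, 70.7, 21.8 and 26.3 in EtOH IMC. Within the ethanol-fed groups its highest values were in libraries 5 and 11, where Muc1 was highest in each group. Slc4a4, a sodium bicarbonate cotransporter, fell by 0.55 (SE 0.09, adjusted p = 0.000363).

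Of 12 signals of duct formation 10 were tested. Averaged over both diets IMC raised 2, Tnfrsf12a, the receptor of the cytokine TWEAK (1.01, SE 0.13, adjusted p = 3.3e-05), and Ctgf, a YAP target (0.94, SE 0.24, adjusted p = 0.00818), and lowered 1, the transcription factor Sox4 (-0.65, SE 0.19, adjusted p = 0.0165). These 3 of 10 stand beside 28.2% of all genes called. Tnfrsf12a was at 161, 130.5, 153 and 127 in EtOH IMC and 60.6, 38.2, 57.3 and 59.1 in EtOH control. Ethanol averaged over both treatments lowered Ctgf by 0.91 (SE 0.24, adjusted p = 0.0109) and Wwtr1, the TAZ coactivator, by 0.28 (SE 0.08, adjusted p = 0.0106, and 0.341 on the deposited scale). It raised 1, Onecut1, so that 3 of 10 were called, beside 26.1% of all genes. The median r of these 10 genes with the mean of the 6 duct markers was -0.03, against 0.38 for the 17 biliary genes and -0.01 for all genes tested.

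The relatives of Reg1 and Muc1 were scarce. None of the 6 other Reg genes (Reg2, Reg3a, Reg3b, Reg3d, Reg3g and Reg4) exceeded 3 reads in any library, and 3 of the 6 had no read at all. Of 7 mucins and trefoil factors only Muc4, a membrane mucin, passed the filter. Muc4 had 29.9, 33.1, 17.5 and 4.05 in Pair control, 0, 1.94, 5.98 and 0 in the Pair IMC mice, 1.78, 9.56, 22.7 and 0 in the EtOH control libraries and 6.84, 33.7, 0 and 9.39 in EtOH IMC, and it was not called in any of the 7 comparisons.

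Markers of other tissues that make Reg1, Slc9a3 or Slc26a3 were read in the same libraries. Of 20 markers of pancreatic acinar cells 10 had no read in any library, Cpa1, Cpb1, Amy2a5, Pnlip and Ptf1a among them, and 17 never exceeded 3 reads. The highest were Cela1 and Ctrb1. Ctrb1 moved with the members, at 33.2, 42.8, 18.7 and 4.05 in Pair control, 1.01, 0.968, 0.996 and 0 in the Pair IMC mice, 0.891, 18.1, 14.3 and 0 in the EtOH control libraries, and 1.71, 5.05, 0 and 13.1 in EtOH IMC. Cela1 had 99.2 to 123 in Pair control and 70.6 to 86.9 in Pair IMC, without overlap, and 91.8 to 109 and 63.3 to 104 in EtOH control and EtOH IMC. Over 16 libraries, group means removed, Cela1 had r = 0.53 with Reg1, 0.45 with Slc9a3 and 0.14 with the duct mean. Only these 2 of the 20 acinar genes passed the filter. Both were called lower with IMC in pair-fed mice, where 9.48% of all genes were called and 5.16% were called lower. Cela1 had a log2 difference of -0.52 (SE 0.14, adjusted p = 0.0275, limma), a call lost without library 4, 6, 10 or 16 (0.0572 to 0.0856) and with quantile normalization (0.0591). That on Ctrb1 (0.0263), with 1 read or none in each IMC library, was lost without library 4, 6, 10, 12 or 14 (0.0536 to 0.0775) and with a pseudocount of 0.1 (0.0643). The summed acinar level was 127 to 159 in Pair control and 78.4 to 100.0 in Pair IMC. With ethanol it was 92.7 to 127 in control and 69.3 to 111 in IMC mice, and Cela1 made up most of it.

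Of 13 markers of intestinal epithelium Cdx1 and Cdx2 had no read in any library and 8 never exceeded 3 reads. Fabp2 and Lgals4 were the highest, and their sum with the others was 1263 to 1405 in Pair control, 729.7 to 932 in the Pair IMC mice, 1102 to 1247 in the EtOH control libraries and 332 to 1434 in EtOH IMC. Over 16 libraries, group means removed, their r with the duct mean was 0.24 (Fabp2) and 0.13 (Lgals4). Lgals4 had r = 0.59 with Reg1 (rho 0.55) and 0.38 with Slc9a3 (rho 0.40). Fabp2 had r = 0.37 with Reg1 (rho 0.04) and 0.42 with Slc9a3 (rho 0.10). The third that passed the filter, Vil1, the villin of brush borders, was low but moved with the members (r = 0.77 with the duct mean, 0.86 with Reg1 and 0.78 with Slc9a3). Vil1 was at 12.2, 27.2, 16.3 and 9.10 in Pair control, 3.03, 2.90, 6.97 and 1.25 in the Pair IMC mice, 0.891, 12.7, 12.6 and 1.002 in the EtOH control libraries and 3.42, 5.05, 1.98 and 11.3 in EtOH IMC. The pair-fed groups did not overlap, and the log2 difference of -1.96 (SE 0.67) did not pass the test (adjusted p = 0.0732, limma), though it did in DESeq2 (0.0345) and with only the pair-fed libraries (0.0396). Over all alternatives this adjusted p ran from 0.02998 to 0.175. The part of pancreatic or intestinal RNA in the levels of Reg1, Slc9a3 and Slc26a3 was not tested beyond these values. No list of gallbladder or kidney markers was read, so the part of those tissues was not tested at all.

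Within liver, the 8 stellate cell and fibroblast markers tested had a median r of 0.39 with the mean of the duct markers, the highest for Acta2, smooth muscle actin (0.64). Acta2 had 76.4, 68.1, 61.8 and 32.4 in Pair control and 24.9, 41.4, 66.5 and 12.02 in EtOH control. Their summed level was 2487 to 3590 in Pair control, 2580 to 3190 in the Pair IMC mice, 3762 to 4409 in the EtOH control libraries and 2585 to 3464 in EtOH IMC. The 10 macrophage markers summed to 2112 to 5658 in Pair control and 2944 to 4046 in the Pair IMC mice, and to 3658 to 5095 and 2779 to 4316 in the ethanol-fed controls and IMC mice. The 8 macrophage markers tested had a median r of -0.19 with the duct mean, and the 8 hepatocyte markers one of -0.09, the lowest for Alb (-0.56). The 8 hepatocyte markers summed to 1434100, 1325120 and 1616390 in Pair control libraries 10, 12 and 14, but to 2042470 in library 16 and 1927180 to 2065950 in the Pair IMC mice. In pair-fed mice the sum was thus higher in the 5 libraries that were low in Krt19, Muc1, Reg1 and Slc9a3. IMC in pair-fed mice raised 1 of the 8 and lowered none, beside 9.48% of all genes called, so the number called is near the background. The 1 raised was the transcription factor Hnf4a (0.71, SE 0.13, adjusted p = 0.00322, limma). In ethanol-fed mice the sum was 1302650 to 1431920 in control and 1135100 to 1484150 with IMC, and libraries 1 and 7, low in Krt19, had 1364790 and 1431920. The part of the hepatocyte level in the duct gene values was not tested. How much portal tract each piece of liver held is not given in the sources used here, and its part in the spread between mice was not tested.

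**Figure D4:**
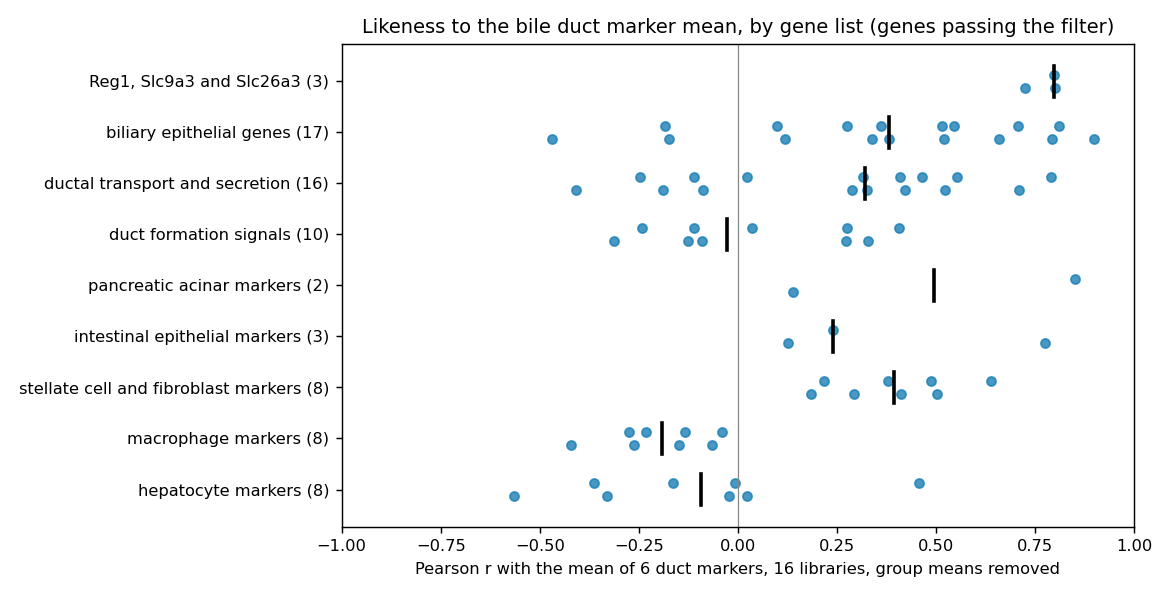
Pearson r (x axis) of each gene with the mean of the 6 tested duct markers over 16 libraries, group means removed, by gene list, with the number of genes that passed the filter in brackets. Points are genes and black bars list medians. Reg1, Slc9a3 and Slc26a3 lie between 0.72 and 0.80, the biliary genes between -0.47 and 0.90, and all 8 macrophage markers below 0.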

How the data were processed

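Liver RNA of 16 mice (4 per group) was analysed. The human samples, metabolite assays and other data of the study are not used here. Per the study's methods, libraries from a directional TruSeq kit were sequenced on a HiSeq4000, trimmed with Trim Galore, aligned with STAR to mm10 and normalized in edgeR, and the counting program is not given in the sources used here. The signal values deposited by the authors are gene read counts divided by a size factor per library, since dividing by the value of 1 read turned 100% of the values into whole numbers to within 0.01. The 2 diets appear to have been normalized apart, which the study's methods do not state. The median gene was 1.14 times higher in ethanol-fed libraries (0.19 on the log2 scale). All 16 columns were therefore rescaled by median ratios over 13121 genes with reads in each library. Genes with a deposited value of at least 10 in 4 or more libraries (12535) were tested two-sided with limma 3.58.1 in R 4.3.3 after taking log2(value + 1), with 4 group means, a mean-variance trend, 7 contrasts, Benjamini-Hochberg adjustment and a threshold of 0.05. A fold change on this scale understates changes of low genes. All groups share 1 estimate of the spread.

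Members and lists were chosen with earlier results of these data known. Named were all 10 members, at most 4 called genes of each pathway list by adjusted p, the 5 genes most like the duct mean, Reg1 and Slc9a3, and the 2 highest genes of a list of another tissue. Cldn3, Cd24a, Elf3 as a list gene, Dcdc2a, Ezr, Slc9a3r1, Slc9a3r2, Slc5a1, Pkd1, Pdzk1, Cdh1, Krt18, Krt23, Onecut1, Muc4, Vil1, Acta2, Hnf4a and Alb were named after their values were seen. In the deposited table each sample is 1 mouse. Intervals and floors cover counting error only, because reads carry no molecular identifiers. Alternatives used other scalings, pseudocounts and filters, whole reads in edgeR 4.0.16 and in DESeq2 1.42.0, and the removal of each library in turn.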

Additional observations from a re-analysis of the deposited data

Results flagged for a closer look

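In groups of 4 libraries, the highest or lowest library was looked at for a gap to the next of more than 0.829 of the group's range, which chance gives in about 1 of 20 groups. Of 176 groups 7 had such a library, which is no more than that rate gives. Slc10a2 was 399 in Pair control library 12, where the others had 104 to 126, and 70.7 in EtOH IMC library 11, where the others had 21.8 to 26.3. Library 12 also had the highest Krt19 (277) and Muc1 (185) of all 16, and library 11 the highest Krt19 (130.5) and Muc1 (85.9) of the ethanol-fed mice. Sox4 was 49.8 in Pair control library 10 (others 36.9 to 38.4). Tnfrsf12a was 38.2 in EtOH control library 3 (others 57.3 to 60.6). Myo1a was 2.02 in Pair control library 16 (others 18.5 to 21.0), the library that was also lowest of its group for Reg1, Slc9a3, Slc26a3, Krt19 and Muc1. Ctrb1 was 0 in Pair IMC library 8, where the others had 1 read each (0.968 to 1.01). The 19 biliary epithelial genes summed to 8400.0 in EtOH control library 5 (others 7052 to 7210).

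The effect of IMC on Pkhd1 differed between diets, by -0.79 on the log2 scale (SE 0.16, adjusted p = 0.0248, limma), being -0.08 in pair-fed and -0.88 in ethanol-fed mice. The call on this difference was lost without library 1, 2, 5, 6, 8, 12 or 15 (adjusted p 0.0506 to 0.0604) and in edgeR without library 15 (0.0513). Low and high library numbers lie on opposite sides of this difference, and their part in it was not tested.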

How the results depend on the processing

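The 1 marker called for IMC in pair-fed mice became 0 with quantile normalization and without the filter on low values, and 2 (Krt7 and Muc1) with only the libraries of the comparison and in edgeR with upper quartiles. Leaving out each library in turn gave 0 to 1. The cause of these shifts was not tested, save that the fits without the filter adjust over more genes and those without a library hold fewer mice. In the 6 other comparisons the count stayed at 0 of 6 in every alternative run, and the median r of the 36 pairs stayed between 0.61 and 0.77. No called value changed sign. The fits without library 15, in which 1 read is worth 1.01 deposited units and whole reads are least securely told, were chosen after seeing the data.

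Counts over all genes moved by more than 1.5 times as follows. IMC in pair-fed mice (1188) gave 691 with only the libraries of the comparison and 537 to 1446 without each library in turn. The difference between diets (139) gave 80 without the filter, 82 without the trend, 340 in DESeq2 (256 without library 15), 72 in edgeR without library 15 and 54 to 159 without each library. Ethanol in control mice (1486) gave 3000 on the deposited scale and 803 to 1593 without each library. Ethanol in IMC-treated mice (2068) gave 3624 on the deposited scale, 1347 in edgeR without library 15 and 1364 to 2213 without each library. Ethanol averaged over both treatments (3267) gave 5222 on the deposited scale.

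At 9632659 to 12601199 reads on genes, 1 read is about 1 normalized count, so Cftr and the low libraries of Reg1, Slc9a3 and Slc26a3 lie at the limit of counting. No paired analysis was possible because no library number is shared between groups.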
